A study of Mus musculus with 10 samples.

Results

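The replication-dependent histone genes make the bulk of the histones H2A, H2B, H3 and H4 that package newly copied DNA. They are short, mostly lack introns, and sit in clusters. The rule for members uses names and places, but it was set with earlier results of these data known. It takes autosomal protein-coding genes whose symbol is H2ac, H2bc, H3c or H4c plus a number. Genes that carry an older Hist1, Hist2, Hist3 or Hist4 symbol of these 4 histones also count. The testis pair H2ac1 and H2bc1 is left out by the rule. The rule found 59 genes among 20665 autosomal protein-coding genes of the annotation, 46 on chromosome 13, 10 on chromosome 3, 2 on chromosome 11 and 1 on chromosome 6. Of the 59 genes, 41 had at least 1 measured cytosine in the window from 1000 bp before to 1000 bp after the gene, and 40 had at least 3.

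Such a gene typically yields an RNA that ends in a stem-loop instead of a poly(A) tail and that is made mainly in S phase, when DNA is copied. Several copies encode the same protein, so a cell can draw on many genes at once. CpG methylation at a gene start usually goes with silence, and histone genes that serve dividing cells are generally kept free of it, while testis histone genes are methylated in most somatic tissues.

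Each sample was 1 whole mouse embryo of embryonic day 7.5, in gastrulation, a time of fast cell division. By their titles 5 were controls and 5 belonged to the arsenic group of a second experiment, and the series asks how methylation compares between them. The sources used here give no strain, sex, arsenic dose or timing. The deposited counts are labelled F2emb, and the labels used here do not say which generation was given arsenic. Methylation was read by reduced representation bisulfite sequencing, which cuts DNA with an enzyme, keeps CpG-rich fragments and turns unmethylated cytosines into bases read as T.

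The table numbers its libraries from 1 to 10 and names no sample, which leaves every library without a known embryo or group. Controls and embryos of the arsenic group are therefore mixed in every value below, no test between groups was run, and nothing here speaks to arsenic. A level averages, over cytosines, the percentage of covering reads that were methylated. A pooled level sums the reads of the 10 libraries at each cytosine first. Coverage summed over all cytosines of the table was between 94583116 and 127102232 per library, and every cytosine had at least 10 reads in each library. In this sum and in all read counts below, a read counts once at each cytosine it covers, so they are not numbers of separate reads. The mean autosomal level was 41.6%, from 40.3% to 42.8% over the libraries. In tissue of many cells, a level between the extremes cannot tell a share of cells from a share of gene copies.

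The start regions of 3 members and of the excluded testis gene H2bc1 show what was read and how the levels differ. They are the promoters of the RefSeq table for GRCm38.p6, from 250 bases before to 50 after the start, in the gene's own direction. H3c6 and H4c11 were chosen as the member promoters with the most measured cytosines, H2bu2 as the most methylated member promoter, and H2bc1 as the contrast. Capitals mark CpGs at which at least 1 cytosine was measured.
H3c6, chr13:23562336-23562635, minus strand: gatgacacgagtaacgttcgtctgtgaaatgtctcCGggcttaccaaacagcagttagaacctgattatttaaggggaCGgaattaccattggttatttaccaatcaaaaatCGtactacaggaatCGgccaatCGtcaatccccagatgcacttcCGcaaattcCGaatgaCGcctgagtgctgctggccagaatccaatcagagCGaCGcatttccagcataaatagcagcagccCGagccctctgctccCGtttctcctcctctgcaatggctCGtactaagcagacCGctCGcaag
H4c11, chr13:21734784-21735083, plus strand: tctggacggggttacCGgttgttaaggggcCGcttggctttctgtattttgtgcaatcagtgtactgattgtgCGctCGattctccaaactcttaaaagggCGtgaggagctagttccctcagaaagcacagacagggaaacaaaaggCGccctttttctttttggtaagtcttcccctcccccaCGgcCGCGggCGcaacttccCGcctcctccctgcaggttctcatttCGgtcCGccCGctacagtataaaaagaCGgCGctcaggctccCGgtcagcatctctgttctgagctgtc
H2bu2, chr11:58948661-58948960, plus strand: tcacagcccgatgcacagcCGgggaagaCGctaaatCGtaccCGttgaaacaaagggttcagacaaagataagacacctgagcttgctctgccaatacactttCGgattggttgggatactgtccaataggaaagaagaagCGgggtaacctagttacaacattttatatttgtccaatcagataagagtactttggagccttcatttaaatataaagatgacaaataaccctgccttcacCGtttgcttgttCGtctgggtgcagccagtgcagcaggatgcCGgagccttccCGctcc
H2bc1, chr13:23934107-23934406, minus strand: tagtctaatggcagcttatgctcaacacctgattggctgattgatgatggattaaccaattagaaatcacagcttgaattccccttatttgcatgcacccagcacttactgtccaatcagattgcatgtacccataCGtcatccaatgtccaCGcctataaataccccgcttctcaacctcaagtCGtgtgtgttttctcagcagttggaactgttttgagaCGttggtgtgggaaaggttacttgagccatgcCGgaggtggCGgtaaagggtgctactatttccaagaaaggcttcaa
Over the marked CpGs of H3c6 the pooled level was 0.589% on 29 cytosines, with 0% in the lowest library, 0.522% in the median and 1.80% in the highest. H4c11 was at 1.12% on 33 cytosines (0.303% lowest, 0.734% median, 3.00% highest). H2bu2 was at 4.09% on 18 cytosines (2.23% lowest, 3.87% median, 5.79% highest). H2bc1 was at 54.9% on only 6 cytosines (41.3% lowest, 54.7% median, 65.7% highest). The lowest library of H2bc1 lay far above the highest library of the other 3 promoters.

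The histone genes were almost free of methylation in all 10 libraries. Of the 40 members with at least 3 cytosines, 36 had a pooled level under 5%, 12 of them under 1%, and 2 were at 20% or more. Among all 17141 autosomal protein-coding genes measured the same way, 9.97% were under 5% and 69.2% were at 20% or more. The median member was at 1.67%, against 34.0% for all those genes. Long genes bring introns into such a window, so genes of at most 1000 bp were also taken alone. Among 151 such genes that were no members, 15.9% were under 5% and 76.2% were at 20% or more, with a median of 47.6%, while the 37 measured members of this length had a median of 1.27%.

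At the start itself the members were like other genes. Of the 55 start regions of 300 bases listed for members, 11 had at least 3 cytosines, and all 11 were under 5%, from 0.545% at H4c8 to 4.09% at H2bu2. Among 8132 measured promoters of autosomal protein-coding genes 82.6% were under 5%, and their median was 1.22%, beside 1.12% for the 11 members. A share of this size at the start was thus near the background.

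**Figure D1:**
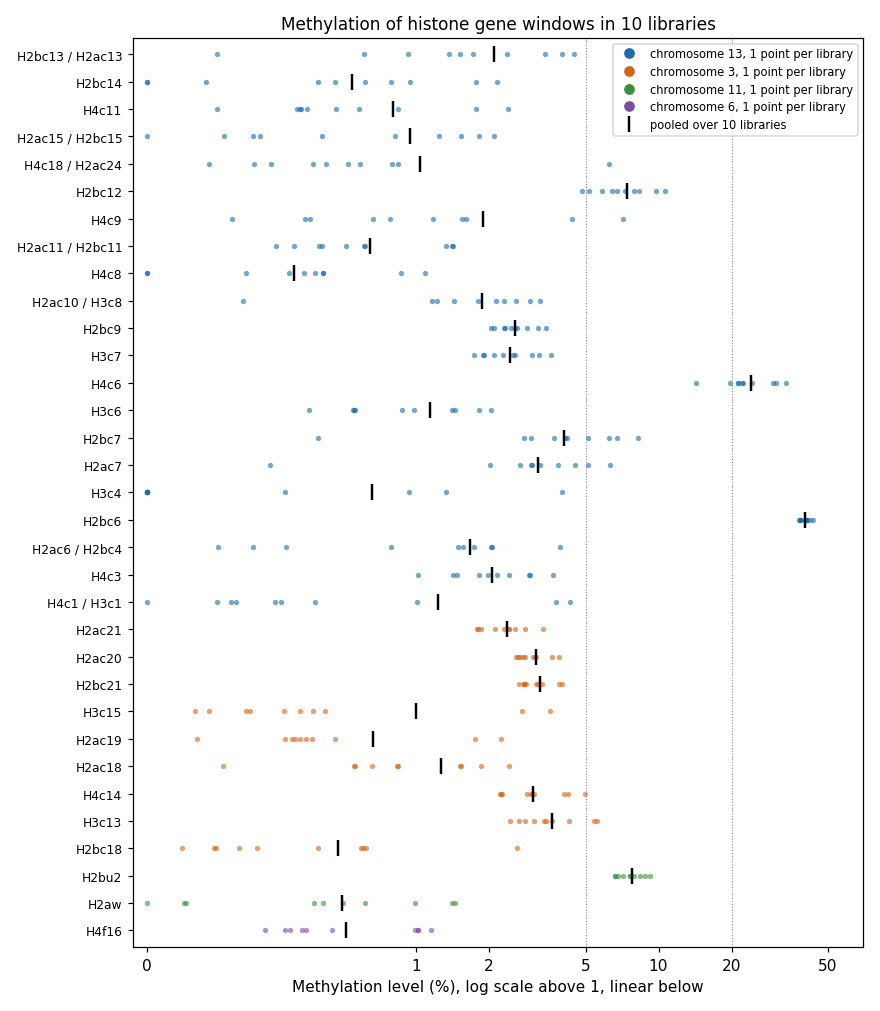
Methylation level of each histone gene window with at least 3 cytosines, in percent on an axis that is linear up to 1 and logarithmic above. Points are the 10 libraries, the black bar is the pooled level, names joined by a slash share all their cytosines, and dotted lines mark 5% and 20%. Most windows lie under 5% in every library, and H4c6 and H2bc6 lie apart at 24.01% and 40.01%.

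The members are not independent points. In all, 7 neighbouring pairs shared every cytosine of their windows, for example H2bc11 with H2ac11 and H4c1 with H3c1, so the 40 members had 33 distinct windows. In 9 places an H2A and an H2B gene faced away from each other with starts 164 to 268 bases apart, and no cytosine was measured between the starts of any of these pairs. Such pairs were sought only among the 54 members with a listed start. H2ac20 with H2bc21 and H2ac6 with H2bc4 were therefore not examined. The families also differed in where they were read. Cytosines inside the gene were measured in 4 of 17 H2A genes, 11 of 17 H2B genes, 3 of 12 H3 genes and 8 of 13 H4 genes. Family members share near-identical coding sequence, and the sources used here do not say how reads that match several copies were placed, so levels inside genes are uncertain in that respect.

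No cytosine of the table fell in the windows of 18 members. These were H2ac4, H2ac12, H2ac22 and H2ac23 for H2A, H2bc3, H2bc8, H2bc22, H2bc23 and H4bc24 for H2B, H3c2, H3c3, H3c10, H3c11 and H3c14 for H3, and H4c2, H4c4, H4c12 and H4c17 for H4. H4bc24 is counted with H2B because its older symbol is Hist1h2br. Only H3c14 lies outside chromosome 13, where 28 of 46 members had at least 3 cytosines. The sequence CCGG, the site of MspI, the enzyme commonly used in this assay, occurred in the start region of 2 of the 18 unmeasured members and of 14 of 37 start regions of measured ones. It occurred in 29.1% of all 55 member start regions and in 53.5% of 31365 autosomal promoters. Which enzyme was used is not stated.

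Chromosome 13 holds the main cluster, in 2 blocks of 22 and 24 members. The first block spans 328 kb (21715711 to 22043658 in mm10), the second 231 kb (23531044 to 23762386), with 1487 kb between them. The first block, measured in 12 of its 22 members through 8 distinct windows, was the less methylated of the 2. Its 154 cytosines were at 1.34%, with 0.807% in the lowest library, 1.14% in the median and 3.09% in the highest, and none of them reached 20%. The second block was at 14.4% (13.7% lowest, 14.3% median, 15.7% highest), but at 2.85% without H2bc6 (2.43% lowest, 2.84% median, 3.36% highest).

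The lowest windows of chromosome 13 had pooled levels under 1%, and some single libraries held no methylated read there. H4c8, a gene of histone H4, was at 0.547% over 18 cytosines, with 0% in the lowest library, 0.605% in the median and 1.09% in the highest. Its pooled reads were methylated in 0.551% (Wilson 95% interval 0.349% to 0.870%). Library 1 had 0 methylated of 360 reads, which allows a level of up to 0.833%. H2bc14 followed at 0.762% (0% lowest, 0.755% median, 2.16% highest). The H2B gene H2bc11 and the H2A gene H2ac11, read through the same 15 cytosines, were at 0.830% (0.481% lowest, 0.774% median, 1.42% highest). The libraries of these windows overlapped throughout, so their order says little. These intervals and limits cover counting error only, and they are too narrow because a read counts at each CpG it spans. Incomplete conversion was not measured here, so a level near 1% may be either methylation or unconverted cytosine.

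H2bc6, an H2B gene, had the highest window of all, and its level did not come from the part near the histone start. RefSeq gives it 37455 bp, since 1 of its 2 listed starts lies 35124 bases before the other. Its 85 cytosines were at 40.01% (38.1% lowest library, 40.2% median, 43.2% highest). They fell into 3 groups. The 26 cytosines at 23585282 to 23585798, which lie 172 to 688 bases inside the inner start, were at 0.987%, with 0.107% in the lowest library, 0.866% in the median and 3.33% in the highest. The 45 cytosines at 23591386 to 23593096 were at 55.2% (50.1% lowest, 54.8% median, 60.0% highest). The 14 cytosines at 23602440 to 23602743 were at 63.6% (55.9% lowest, 64.1% median, 69.0% highest).

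Every library showed this split, with no overlap between the first group and the others. Each of the 59 outer cytosines was at 20% or more, from 23.02% to 84.1%, while the highest of the 26 inner ones was 4.24%. The outer groups lie 5416 bases or more from either start and also within Gm33387, an overlapping long noncoding RNA gene (23591323 to 23605954). The inner group alone would thus put H2bc6 among the least methylated members.

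**Figure D2:**
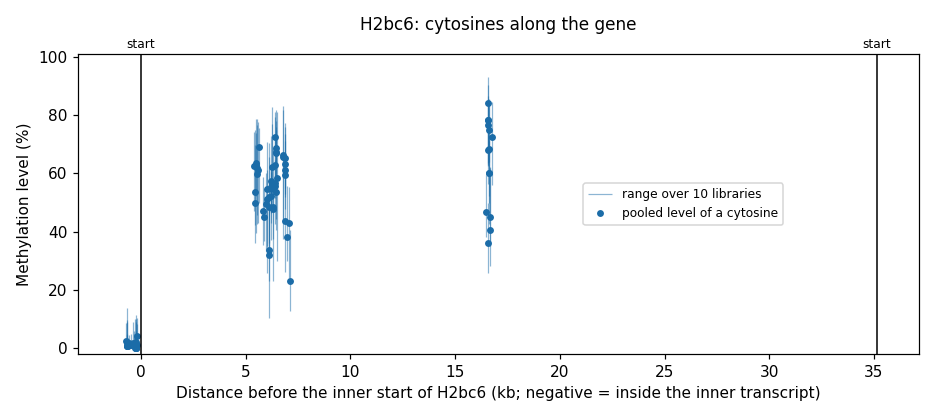
Methylation level in percent of the 85 cytosines of H2bc6 against their distance before the inner start in kilobases. Points are pooled levels, vertical lines the range over 10 libraries, and black lines the 2 listed starts. The 26 cytosines inside the inner start are at 0.987% on average and the 59 others at 57.2%.

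H4c6 and H2ac8 were the other members of chromosome 13 with intermediate levels, and both rested on few cytosines outside the gene. H4c6, an H4 gene, had 6 cytosines, all before its start, at 24.01%. Its libraries ran from 14.2% through a median of 22.2% to 33.6%, the widest range of any member with 3 or more cytosines, and 24.2% of its 1855 pooled reads were methylated (22.3% to 26.2%). The 3 of these cytosines at 20% or more lay 356 to 668 bases before the start and reached 46.9%. H2ac8, an H2A gene, had 2 cytosines, 954 and 1405 bases after its start, at 34.7% (19.6% lowest, 34.6% median, 44.0% highest), and is not counted among the 40. Neither gene had a cytosine measured within it or within 250 bases before it, so these levels are not those of a histone gene start.

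A further 3 members of chromosome 13 stood out by level or range. H2bc12, an H2B gene, was at 7.39% over 4 cytosines (4.85% lowest, 7.0% median, 10.6% highest), all after the gene end. H2bc7, also an H2B gene, was at 4.07% over 13 cytosines inside it, from 0.636% in library 7 through a median of 4.14% to 8.22% in library 6. The H4 gene H4c9 was at 1.88% over 22 cytosines with 0.319% in the lowest library, 1.04% in the median and 7.15% in library 10, where it was highest. Of the 40 measured members, 32 had a range under 5 points over the libraries.

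The cluster on chromosome 3 was low throughout. It spans 50.3 kb (96219885 to 96270192), and its 285 cytosines were at 2.74%, with 2.29% in the lowest library, 2.83% in the median and 3.16% in the highest. All 9 measured members were under 5%. H2bc18, an H2B gene, was lowest at 0.712% over 36 cytosines, all inside the gene (0.132% lowest, 0.524% median, 2.62% highest). H2ac19 and H3c15, genes of H2A and H3, were at 0.839% (0.188% lowest, 0.581% median, 2.24% highest) and 1.00% (0.179% lowest, 0.539% median, 3.58% highest). For both, libraries 9 and 10 held the highest values, but their windows overlap, so these are not separate readings. H4c14, the only H4 gene of the cluster, had the most cytosines of any member, 98, at 3.05% (2.21% lowest, 3.00% median, 4.98% highest).

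The highest window of the chromosome 3 cluster took its level from flanking cytosines. H3c13, an H3 gene, was highest at 3.63% over 43 cytosines (2.45% lowest, 3.41% median, 5.56% highest). Its 7 cytosines between 1000 and 251 bases before the start were at 18.6% (12.1% lowest, 18.1% median, 29.1% highest), and 4 of them reached 20% or more, up to 23.6%. The remaining 36 cytosines of the window lie in the neighbouring H2bc18 at 0.712%. H2bc21 and H2ac20, which encode H2B and H2A, were read largely through the same cytosines, all 64 of H2bc21 being among the 69 of H2ac20. They were at 3.26% (2.67% lowest, 2.99% median, 3.99% highest) and 3.13% (2.59% lowest, 2.93% median, 3.90% highest), with library 8 highest in both. Of the 64 cytosines of H2bc21, 52 lay inside that gene, at 3.63%, so its level did not come from flanks.

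On chromosome 11 the 2 members differed. H2bu2 encodes an H2B and lies at 58948911 to 58949372, and H2aw encodes an H2A at 58954685 to 58955192. H2bu2 was at 7.77% over 97 cytosines (6.59% lowest, 7.61% median, 9.22% highest). H2aw was at 0.726% over 36 cytosines (0% lowest, 0.691% median, 1.45% highest). H2bu2 was above H2aw in 10 of 10 libraries, with no overlap of the ranges. The level of H2bu2 was higher further from its start. It was 5.40% over 62 cytosines from base 50 after the start to the gene end (3.42% lowest, 5.25% median, 6.85% highest) and 20.4% over 17 cytosines after the end (15.9% lowest, 20.5% median, 23.2% highest). Its lowest library after the end was above its highest library within the gene, and its highest cytosine there reached 52.2%.

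H4f16 on chromosome 6, the only member outside the clusters, encodes an H4 under the older symbol Hist4h4 (136803993 to 136804431). All its 53 cytosines lay inside the gene and under 5%. Their level was 0.741% (0.438% lowest, 0.640% median, 1.15% highest).

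How the clusters rank depended on H2bc6. With it the 428 cytosines of chromosome 13 were at 9.69% (9.06% lowest, 9.63% median, 10.4% highest), above both other clusters in 10 of 10 libraries. Without it 343 cytosines were at 2.17% (1.83% lowest, 2.16% median, 2.80% highest), below chromosome 3 in 9 of 10 libraries. Within 1000 bp of a start, chromosome 13 was at 1.96%. Chromosome 11 at 5.87% (4.84% lowest, 5.65% median, 6.99% highest) was above chromosome 3 in 10 of 10 libraries. These orders are descriptions, because the libraries mix the study's groups and the clusters are read through different parts of their genes.

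**Figure D3:**
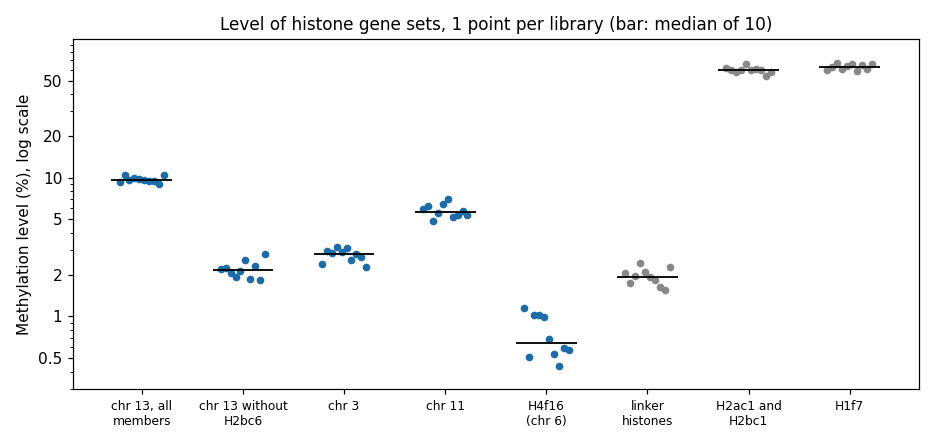
Methylation level in percent, on a logarithmic axis, of histone gene sets, with 1 point per library from 1 to 10 left to right and a bar at the median. Blue sets are members and grey sets are other histone genes. The testis genes H2ac1, H2bc1 and H1f7 lie above 50% in every library, and chromosome 13 is at 9.69% pooled with H2bc6 and at 2.17% without it.

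Mean levels were higher away from the gene starts. Each cytosine was placed by the nearest member with a listed start, which 54 members had. The 98 cytosines of H4c14, which has no listed start, were left out of this placing. H2bc21, H2bc4, H3c7 and H3c1 have no listed start either, and their cytosines were placed by a neighbour. The 52 cytosines inside H2bc21, 18 inside H2bc4 and 3 inside H3c7 were thus not counted as inside a gene. The 156 cytosines from 250 bases before to 50 after a start were at 1.31% (0.730% lowest library, 1.31% median, 1.92% highest), and none reached 20%. The 391 inside genes with a listed start and within 1000 bases of it were at 1.74% (1.32% lowest, 1.79% median, 2.15% highest). The 146 further before the start were at 4.76% (4.16% lowest, 4.75% median, 5.52% highest), and the 8 of them at 20% or more belonged to H3c13, H4c3 and H4c6. Some of the 146 lie inside members without a listed start. The 34 cytosines up to 500 bp after a gene end were at 4.61% (3.39% lowest, 4.33% median, 6.60% highest). The 15 cytosines more than 500 bp after it were at 22.3%, but 13 of these belonged to H2bu2 and the others to H2ac8 and H2bc12. Median cytosine levels differed less, at 0.780% around the start, 0.766% inside genes within 1000 bases of it and 1.97% further before it. The median was 1.38% up to 500 bp after a gene end and 17.3% beyond that. Without H2bc6, 17 of all 814 member cytosines were at 20% or more.

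**Figure D4:**
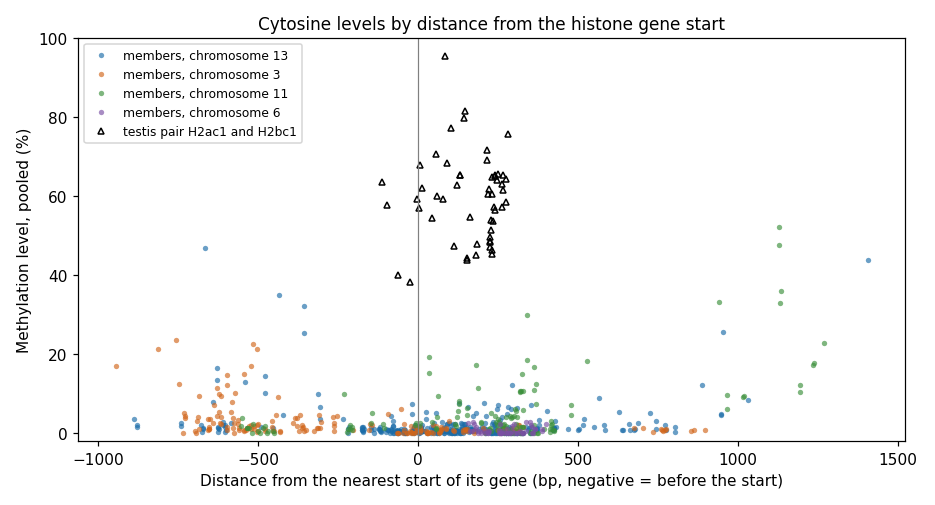
Pooled methylation level in percent of single cytosines against their distance in bases from the nearest start of their gene, or of a neighbour where their gene has no listed start. Coloured points are members by chromosome and triangles the testis pair. The 59 outer cytosines of H2bc6, at 23.0% to 84.1%, lie too far from a start to be shown. The 98 cytosines of H4c14, which has no listed start, are also absent. From 250 bases before to 50 after a start 150 of 156 member cytosines are under 5%, with H2bu2 up to 19.1%, while the 54 triangles lie between 38.2% and 95.4%.

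The testis pair was the clearest contrast. H2ac1 and H2bc1 encode H2A and H2B forms of the testis and lie 171 kb after the last member on chromosome 13, in the same head-to-head layout with starts 281 bases apart. Through the same 54 cytosines both were at 59.6%, with 54.3% in the lowest library, 59.7% in the median and 65.8% in the highest. Of their 28104 reads, 60.5% were methylated (59.9% to 61.1%). Their lowest library was above the highest window level of any of the 40 members in any library, 43.2% at H2bc6. That window includes the 26 low inner cytosines. The 59 outer cytosines of H2bc6 alone ran from 54.6% to 61.7% over the libraries, within the range of the testis pair. H1f7, a testis linker histone gene on chromosome 15, was at 62.7% (58.9% lowest, 63.0% median, 67.3% highest), and H1f6, the fourth gene of this list, had no measured cytosine.

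Linker histone genes were low too. H1f1 to H1f5 make the H1 proteins that bind DNA between nucleosomes, and all but H1f1 lie between members of chromosome 13. Of these 5 genes 4 were under 5%, from H1f4 at 0.419% (0% lowest, 0.302% median, 1.38% highest), and H1f1 was at 5.16% (4.00% lowest, 4.78% median, 7.36% highest). Of 45 other protein-coding genes between the first and last member of chromosome 13 with no histone name, 9 were measured, with a median of 6.08%. They ran from Abt1 at 0.929% to Gm11295 at 73.95%, and 4 were under 5%.

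Histone variants made outside S phase were mixed. Of 10 such genes 6 were under 5%, among them H3f3a, which encodes H3.3, at 0.731% and H2az1, which encodes H2A.Z, at 1.41%. At 20% or more were Cenpa, the centromeric H3, at 22.1%, Macroh2a2 at 32.7% and Macroh2a1 at 67.95%. Of 15 genes that make histone RNA or carry histones, 4 were under 5% and 10 at 20% or more. Asf1b and Asf1a, histone chaperones, were at 0.799% and 1.10%, Cpsf2 at 4.40% and Slbp, which binds the stem-loop of histone RNA, at 4.52%. Npat, which activates histone genes at the start of S phase, was at 13.3% and Lsm10, a part of the U7 particle that trims histone RNA, at 62.9%. Most of these genes are long, so their windows hold introns and these levels are not those of starts.

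The start regions of members shared short motifs, searched as exact letters on both strands. CCAAT, the site of NF-Y, was in all 17 H2A, 16 H2B and 10 H3 start regions but in 3 of 12 of H4, and in 37.3% of all autosomal promoters. The TATA box, spelled TATAAA, was in 29 of 55 member regions (52.7%) against 13.6% of all. ATTTGCAT, the octamer of POU factors known from H2B genes, was in 12 of 55 (21.8%), 6 of H2A and 6 of H2B, against 1.75% of all. H2A and H2B genes that face away from each other share part of these letters, so their counts are not separate. The shown H2bc1 region holds all 3 motifs, that of H2bu2 the NF-Y site and the TATA box, that of H3c6 only the NF-Y site and that of H4c11 only the TATA box. A match describes the letters only.

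Differences between the libraries were no more frequent at member CpGs than elsewhere. A chi-square test of equal levels in the 10 libraries, adjusted by Benjamini-Hochberg, covered all 1755343 autosomal cytosines at 5 to 95% pooled level, of which 25.4% had an adjusted p under 0.05. Of the 175 member cytosines in that range 40 did (22.9%), 14 of 59 in H2bc6 and 9 of 40 in H2bu2. When the statistic was divided by 2, as if each fragment had been counted in both of its reads, 0.0867% of all cytosines and 0 of the 175 passed, 11 of the 175 having an unadjusted p under 0.05. The number of calls thus depended on this assumed divisor. No reads were recounted, and whether fragments were counted in both reads was not tested. Whether the study's groups differ at these cytosines was not tested.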

How the data were processed

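Genomic DNA of 10 single embryos was measured, 5 titled control and 5 arsenic. The authors deposited 1 table of raw counts per CpG cytosine and library (coverage, methylated and unmethylated reads), which are not normalized and with strands apart. Trim Galore, Bismark, methylKit and mm10 are named, without versions, in the submitters' processing notes. How duplicate reads and overlapping mates were treated is not stated. All 30 per-library columns carry numbers only and belong to no known sample. They were used as unlabelled libraries, and the planned exact permutation test of control against arsenic was not run.

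Genes came from RefSeq for GRCm38.p6, whose coordinates are those of mm10, and starts and strands from its promoter table, which held 54 of the 59 members. All 151170 table cytosines in promoters were a C there on their own strand. Members and gene lists were chosen with earlier results of these data known. Named are the 3 highest, 3 lowest and 3 widest-ranging members per cluster with at least 3 cytosines, those at 20% or more, and those outside the clusters. The chi-square test was tested on simulated data first. Python 3.11.15, numpy 2.4.6, pandas 2.3.3 and scipy 1.17.1 were used. Alternatives were a coverage minimum of 20, summed reads, flanks of 500 bp or none, merged strands, each library left out, and, chosen after seeing the data, H2bc6 left out and windows within 1000 bp of a start.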

Additional observations from a re-analysis of the deposited data

Results flagged for a closer look

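For each distinct member window, the members together and the 3 clusters, the gap between the most extreme library and the next was compared with the whole range of the 10 libraries, taking them as 1 set although they hold 2 groups. For normally distributed values, chance marks about 1 in 20 sets. Many windows lie near the lowest possible level, where a library has little room to stand out downward. How often chance marks such sets was not tested, and the sets overlap because the clusters contain the windows. Among 37 sets 4 were marked, all on the high side. This count can therefore not be compared with 1 in 20.

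In library 10 the window shared by H4c18 and H2ac24 was at 6.23%, with the next library at 0.933% and a median of 0.706%. All 14 of its cytosines carried 2 to 5 methylated reads there, at coverages of 34 to 70. H2bc18 was at 2.62% in library 3 (next 0.815%, median 0.524%), with methylated reads at 20 of 36 cytosines. H2ac6 and H2bc4, which share their cytosines, were at 3.92% in library 3 (next 2.06%, median 1.52%), with methylated reads at 12 of 18. H3c4 was at 4.00% in library 2 (next 1.33%, median 0%), from 2 of 5 cytosines at a coverage of 30. Whether neighbouring methylated cytosines came from the same reads was not tested.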

How the results depend on the processing

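The levels moved by more than the SD over libraries under several settings. Without H2bc6 the level of all member cytosines went from 6.39% to 2.88% and that of chromosome 13 from 9.69% to 2.17%. Within 1000 bp of a start, where the 98 cytosines of H4c14 also drop out, these were 2.40% and 1.96%, and chromosome 11 was at 4.2%. With a coverage minimum of 20, all members were at 7.24%, chromosome 13 at 11.2%, chromosome 3 at 2.33% and chromosome 11 at 8.24%. With summed reads, all members were at 7.42%, chromosome 13 at 12.4% and chromosome 3 at 2.36%. With a flank of 500 bp, all members were at 6.06%, chromosome 3 at 1.91% and chromosome 11 at 4.34%. Without flanks, all members were at 7.45%, chromosome 13 at 11.8%, chromosome 3 at 1.89% and chromosome 11 at 4.39%. Merged strands put chromosome 13 at 9.03%. Members at 20% or more numbered 1 instead of 2 without flanks and within 1000 bp of a start. Members under 5% numbered 36 of 40 as reported, with summed reads and with any library left out, and 35 of 40 with merged strands. They numbered 29 of 34 both with a coverage minimum of 20 and with a flank of 500 bp. Within 1000 bp of a start they were 30 of 34, and without flanks 24 of 26. The 40 cytosines that differed between libraries fell to 0 with the statistic divided by 2. Leaving out each library in turn gave 6.34% to 6.43% for all members, 9.61% to 9.76% for chromosome 13, 2.69% to 2.79% for chromosome 3 and 5.72% to 5.97% for chromosome 11. The causes of these shifts were not tested, except that H2bc6 holds 59 of the 76 cytosines at 20% or more.

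No paired analysis was possible because the libraries carry numbers without sample names. The planned comparison of control with arsenic and its replicate block were not run. Depth limits the lowest windows, where 8 of 40 members had a library with 0 methylated reads.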
